A study of Mus musculus with 24 samples.

Results

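Bone mineral forms when phosphate is released outside the cell and inhibitors of crystal growth are removed, and 9 genes of that step were followed here in cultured primary osteoblasts (OBs): *Alpl*, *Phospho1*, *Smpd3*, *Ifitm5*, *Slc20a1*, *Slc20a2*, *Enpp1*, *Ank* and *Mgp*. They were taken by symbol from the 55335 genes counted in each library, and each of the 9 symbols matched 1 gene. The cells came from parietal bones of pups that were wild type (WT) or heterozygous (Het) for G610C, a Gly to Cys substitution in the triple helix of the procollagen α2(I) chain encoded by *Col1a2* (allele Col1a2tm1Mcbr, C57BL/6J background), and cells of several 5-day-old pups of 1 genotype were pooled. Both genotypes were grown in αMEM with 10% fetal bovine serum and ascorbic acid 2-phosphate, and RNA was taken on days 8, 14 and 21, counted from seeding, with 4 libraries of each genotype at each day (24 in all). The mutation is in every cell of the Het animals. According to the study's methods, the cultures also held cells that made no collagen I, and separate experiments used other litters, seeding densities and oxygen levels. The labels give only a replicate number, 1 to 4, and the deposited files of replicate 1 are named in another style than those of replicates 2 to 4.

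Extracellular phosphate is set by opposing enzymes: the ectoenzyme ENPP1 makes pyrophosphate, an inhibitor of mineral growth, and tissue-nonspecific alkaline phosphatase (*Alpl*) splits it into phosphate. Inside matrix vesicles, the small membrane bodies that OBs shed into the matrix, PHOSPHO1 frees phosphate from phosphocholine, which the sphingomyelinase SMPD3 helps to supply. ANK brings pyrophosphate or its precursor out of the cell, SLC20A1 and SLC20A2 carry phosphate into it, MGP is a secreted inhibitor of calcification that needs γ-carboxylation, and IFITM5 is a small membrane protein of bone cells in which a mutation causes a form of osteogenesis imperfecta.

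Counts per library ranged from 17140202 to 59734231 with a median of 48340136, and the 6 libraries of replicate 1 were the shallowest, with 17140202 to 25825762 counts against 28159342 to 59734231 in replicates 2 to 4. Levels are given as RQ, for which the count was scaled to the geometric mean of 4 housekeeping genes (*Sdha*, *Mrfap1*, *Actb* and *Actg1*) of its library. All 5 OB markers examined (*Runx2*, *Sp7*, *Col1a1*, *Col1a2* and *Ibsp*) were detected, with a summed RQ of 32.0 to 88.4 in the day 8 libraries and 168 to 336 in those of days 14 and 21. Markers of other cells were present too. The 5 chondrocyte markers summed to an RQ of 1.12 to 34.4 and the 5 macrophage and osteoclast markers to 0.409 to 2.96, whereas the 4 endothelial markers stayed at or below 0.00486. Replicate 1 stood apart in several of the 9 genes. Their genotype differences at day 8 and over days 14 and 21 are therefore given with and without it, in the text or in a figure.

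The 9 genes lie on 8 chromosomes (GRCm38, GENCODE M21). *Alpl* is at chr4:137741733-137796384 on the minus strand, *Phospho1* at chr11:95824499-95832140 on the plus strand, *Smpd3* at chr8:106252548-106337988 on the minus strand and *Ifitm5* at chr7:140948958-140950291 on the minus strand. *Slc20a1* is at chr2:129198764-129211616 and *Slc20a2* at chr8:22476788-22569612, both on the plus strand. *Enpp1* is at chr10:24637914-24712159 on the minus strand, *Ank* at chr15:27466677-27594909 on the plus strand and *Mgp* at chr6:136872435-136875823 on the minus strand. Exons of *Alpl*, *Enpp1* and *Mgp* overlap no other gene. In contrast, 1818 of the 2029 exon bases of *Phospho1* are shared with *Abi3* on the other strand or *Zfp652* on the same strand. *Ifitm5* shares 227 of 765 bases with Gm45717, *Slc20a1* 732 of 5580 with 9830144P21Rik and Gm4430, *Smpd3* 247 of 5232 with *Prmt7*, *Slc20a2* 95 of 6216 with *Smim19* and *Ank* 65 of 3610 with *Mir7117*.

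Promoter sequence was found for 6 of the 9 genes (RefSeq, GRCm38.p6). The 250 bases before the annotated start are shown for 3 genes that rose with culture time and for 2 that fell, with the windows at chr4:137796385-137796634 (minus strand) for *Alpl*, chr11:95824250-95824499 (plus strand) for *Phospho1*, chr7:140950244-140950493 (minus strand) for *Ifitm5*, chr2:129198523-129198772 (plus strand) for *Slc20a1* and chr10:24712160-24712409 (minus strand) for *Enpp1*. RefSeq and GENCODE place the start differently in 3 of them, so the last 48 bases shown for *Ifitm5*, 9 for *Slc20a1* and 1 for *Phospho1* lie inside the gene as placed above. Capitals mark matches on either strand to TGTGGT (reverse ACCACA), the core that RUNX factors bind, or to GGGCGG (reverse CCGCCC), the GC box.
Alpl: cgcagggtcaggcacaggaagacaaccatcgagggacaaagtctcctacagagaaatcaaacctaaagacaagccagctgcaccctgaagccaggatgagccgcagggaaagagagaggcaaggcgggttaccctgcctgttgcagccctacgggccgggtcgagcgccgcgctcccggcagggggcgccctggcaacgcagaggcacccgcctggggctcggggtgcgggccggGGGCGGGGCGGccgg
Phospho1: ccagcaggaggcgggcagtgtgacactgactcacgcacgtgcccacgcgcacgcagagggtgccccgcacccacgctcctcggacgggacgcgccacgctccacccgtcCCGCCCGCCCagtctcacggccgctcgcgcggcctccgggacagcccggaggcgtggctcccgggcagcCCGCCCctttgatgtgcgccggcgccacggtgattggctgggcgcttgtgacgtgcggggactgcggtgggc
Ifitm5: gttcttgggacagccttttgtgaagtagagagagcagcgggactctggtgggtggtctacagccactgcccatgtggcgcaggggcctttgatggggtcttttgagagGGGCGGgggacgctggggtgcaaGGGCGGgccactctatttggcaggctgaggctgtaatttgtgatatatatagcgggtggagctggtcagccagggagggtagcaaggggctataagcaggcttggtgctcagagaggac
Slc20a1: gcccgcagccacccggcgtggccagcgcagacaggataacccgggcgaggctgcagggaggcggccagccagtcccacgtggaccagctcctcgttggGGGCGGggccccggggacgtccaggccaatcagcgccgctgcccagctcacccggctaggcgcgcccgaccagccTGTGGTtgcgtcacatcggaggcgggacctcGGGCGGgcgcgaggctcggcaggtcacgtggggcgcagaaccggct
Enpp1: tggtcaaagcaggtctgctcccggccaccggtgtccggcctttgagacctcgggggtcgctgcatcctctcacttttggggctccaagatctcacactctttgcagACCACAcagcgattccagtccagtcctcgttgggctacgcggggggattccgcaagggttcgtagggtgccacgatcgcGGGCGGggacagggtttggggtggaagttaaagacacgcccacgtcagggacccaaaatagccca
The RUNX core was found once in *Slc20a1* and once in *Enpp1* and not in the windows of *Alpl*, *Phospho1* or *Ifitm5*. Over windows from 250 bases before to 50 after the start, 16.8% of 32851 promoters held this core and 35.7% a GC box. Each of the 5 windows shown held at least 1 GC box, with 2 in *Alpl*, 3 in *Phospho1* and 2 in *Ifitm5*, of which those of *Alpl* and a pair in *Phospho1* overlap each other. Another motif, TATAAA (reverse TTTATA), was present in 13.6% of all windows from 250 bases before to 50 after the start. Among these genes it was in that of *Slc20a1* and in a second *Alpl* window further along the gene. In *Slc20a1* it begins at the last base shown and runs on past the start, so the printed sequence does not hold it. These matches describe the letters of the windows only.

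Per kb of exon, *Mgp* was the most abundant of the 9 in all 6 groups, with a mean RQ per kb at day 8 of 1.16 in WT and 0.822 in Het. *Alpl* followed at that day (0.118 in WT, 0.0689 in Het), and *Slc20a2* was lowest (0.00740 in WT, 0.00733 in Het). By day 14 in WT, *Phospho1* (0.635) and *Alpl* (0.506) overlapped in RQ per kb and took the next places, then came *Ifitm5* at 0.366 and *Smpd3* at 0.226 without overlap, then *Ank* at 0.0363 and *Slc20a1* at 0.0190. *Enpp1* was lowest from day 14 on, with an RQ per kb at day 14 of 0.00518 in WT against 0.00395 in Het, and its range overlapped that of *Slc20a2* in all groups. The order at day 14 was the same in Het, where *Mgp*, *Phospho1* and *Alpl* each overlapped the gene after it.

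**Figure D1:**
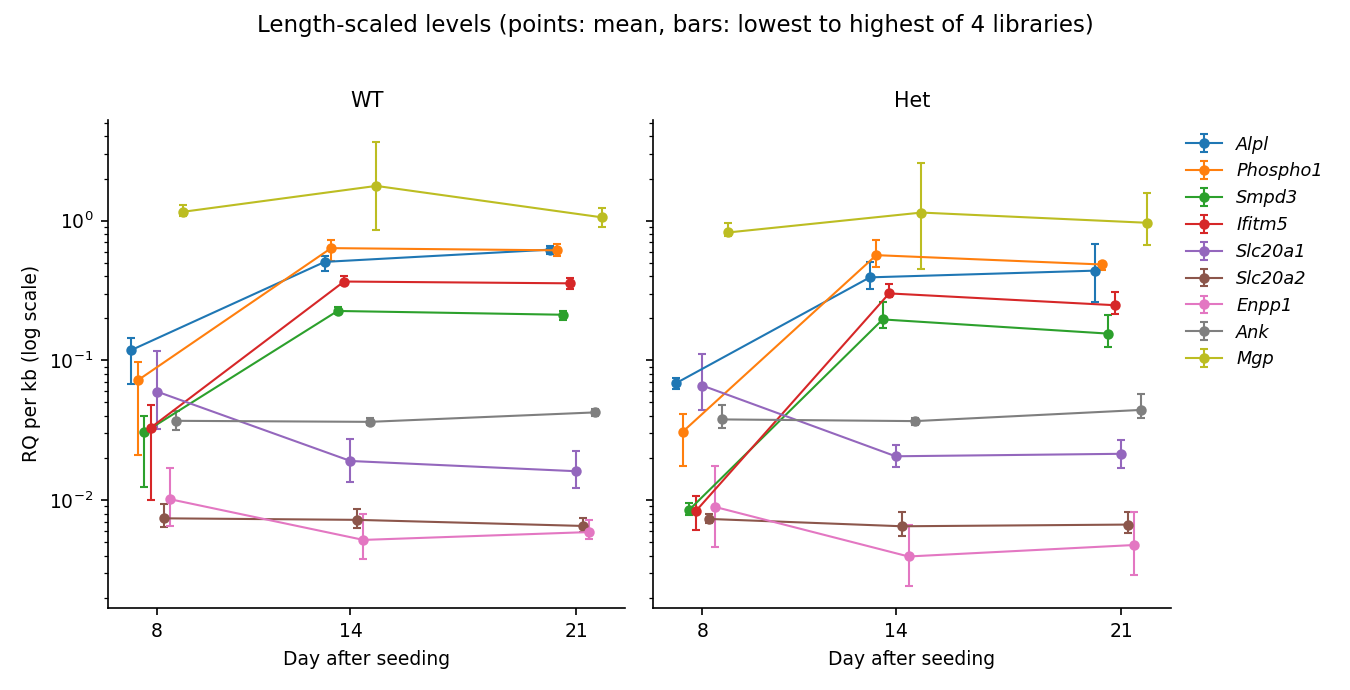
Mean RQ per kb of exon (log axis) of the 9 genes against day after seeding, in WT (left) and Het (right), with bars from the lowest to the highest of 4 libraries. From day 14 on, *Alpl*, *Phospho1*, *Smpd3* and *Ifitm5* stood above *Ank* and *Slc20a1*, and *Slc20a2* and *Enpp1* were lowest, while *Mgp* had the highest mean throughout.

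The first comparison asks how the genes moved with time in culture. *Alpl*, *Phospho1*, *Smpd3* and *Ifitm5* rose from day 8 to day 14 and *Slc20a1* and *Enpp1* fell, so 6 of the 9 genes passed the test (edgeR's quasi-likelihood test, Benjamini-Hochberg adjusted p under 0.05). Among all 20434 genes tested, 47.6% passed, 34.2% higher and 13.4% lower. *Slc20a2*, *Ank* and *Mgp* did not pass. In WT alone 5 of the 9 passed (30.7% of all genes) and in Het alone 6 (35.4%), the extra gene being *Enpp1*. *Enpp1* fell in both, by log2 −0.97 in WT (adjusted p = 0.0897, edgeR) and −1.19 in Het (adjusted p = 0.0349). In WT it passed without replicate 1 (−0.88, adjusted p = 0.00616) and with the replicate number as a block (−0.93, adjusted p = 0.000672). Over both genotypes without replicate 1, *Slc20a2* passed as well (log2 −0.13, 7 of 9, against 62.8% of 19656 genes). The median log2 fold change of all genes between these days was 0.126 on the housekeeping scale, −0.02 with TMM, 0.0058 with DESeq2 size factors and −0.151 with total counts, and the direction of the 6 called genes was the same on each scale. With any of the other 3 scales *Slc20a2* (log2 −0.38 to −0.23) and *Ank* (−0.30 to −0.14) also passed as lower, which made 4 genes higher and 4 lower, where 50.3% of all genes passed with TMM, 49.8% with DESeq2 size factors and 57% with total counts. In bulk RNA, fewer cells of a type and less RNA per cell cannot be told apart. Wells of 1 preparation share a pool of pups, so the p-values measure the spread between these libraries, which may be technical.

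*Alpl* had an RQ of 0.274, 0.578, 0.579 and 0.480 in WT replicates 1 to 4 at day 8 and of 0.251, 0.287, 0.300 and 0.273 in Het. By day 14 the RQ of *Alpl* was 1.75, 2.26, 2.13 and 2.02 in WT and 2.05, 1.62, 1.35 and 1.31 in Het. The lowest day 14 library was above the highest day 8 library. Fitted over both genotypes, *Alpl* rose 4.93-fold (log2 fold change 2.30 ± 0.17, SE, adjusted p = 3.55e-10, edgeR).

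*Phospho1* had an RQ of 0.0426, 0.197, 0.198 and 0.146 in WT at day 8 and of 0.0356, 0.0691, 0.0835 and 0.0626 in Het. By day 14 these became 1.03, 1.47, 1.41 and 1.24 in WT and 1.204, 1.48, 0.964 and 0.941 in Het, again without overlap between the days. The log2 fold change of *Phospho1* was 3.67 ± 0.24 (SE, 12.7-fold). Its reads, however, cannot be told apart from those of *Abi3* and *Zfp652*. In each of the 24 libraries the *Abi3* count was 0.834 to 0.912 of the *Phospho1* count, and their log2 RQ correlated at 0.9999 over the 24. *Zfp652* counts were 1.05 to 2.62 times those of *Phospho1*. The reads counted for *Phospho1* beyond those for *Abi3* amounted to an RQ of 0.00399 to 0.0265 at day 8 and of 0.109 to 0.246 at days 14 and 21, so this difference of counts also rose without overlap.

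*Smpd3* had an RQ of 0.0650, 0.208, 0.205 and 0.160 in WT at day 8 and of 0.0439, 0.0407, 0.0499 and 0.0441 in Het. By day 14 the RQ of *Smpd3* was 1.15, 1.26, 1.11 and 1.197 in WT and 1.37, 0.924, 0.924 and 0.885 in Het. The days did not overlap in either genotype, and the fitted rise of *Smpd3* was 13.03-fold (log2 3.70 ± 0.19, SE). The gene that shares bases with it, *Prmt7*, had 0.0551 to 0.103 times the *Smpd3* count at days 14 and 21, but 0.282 to 1.31 times at day 8.

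*Ifitm5* had the highest rise of the 9, 19.8-fold (log2 4.31 ± 0.21, SE, adjusted p = 8.96e-13, edgeR). Its RQ at day 8 was 0.00772, 0.0319, 0.0365 and 0.0246 in WT and 0.00470, 0.00655, 0.00821 and 0.00604 in Het. By day 14 the RQ of *Ifitm5* was 0.267, 0.305, 0.283 and 0.266 in WT and 0.218, 0.269, 0.217 and 0.218 in Het. All day 14 libraries were thus several fold above all day 8 libraries. Gm45717 had 7.16 to 45.3 times the *Ifitm5* count at day 8 and 1.59 to 2.60 times later.

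Markers of OBs and osteocytes moved with these genes. All 5 OB markers and all 4 osteocyte markers (*Dmp1*, *Mepe*, *Phex* and *Sost*) were higher at day 14 than at day 8, with median log2 fold changes of 1.84 and 6.85 against 0.13 over all genes tested. The osteocyte markers summed to an RQ of 0.00704 to 0.0539 at day 8 and of 0.362 to 0.827 at day 14. Of the 5 macrophage and osteoclast markers, 4 were also higher at day 14. How far a change in cell make-up entered the rise of *Alpl*, *Phospho1*, *Smpd3* and *Ifitm5* was not tested.

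*Slc20a1*, the phosphate carrier also called PIT1, went the other way. Its RQ at day 8 was 0.647, 0.198, 0.179 and 0.308 in WT and 0.618, 0.246, 0.244 and 0.365 in Het. By day 14 it was 0.152, 0.0876, 0.0754 and 0.110 in WT and 0.125, 0.138, 0.0960 and 0.09996 in Het. The highest day 14 library was below the lowest day 8 library, and the log2 fold change of *Slc20a1* was −1.67 ± 0.26 (SE, 0.315-fold, adjusted p = 1.36e-05, edgeR). Replicate 1 had the highest *Slc20a1* in both genotypes at day 8.

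*Slc20a2* (PIT2) stayed between 0.0346 and 0.0580 RQ in all 24 libraries, with a log2 fold change of −0.11 and a 95% interval of −0.30 to 0.09 from day 8 to day 14. Within a library the count per kb of *Slc20a1* was 7.70 times that of *Slc20a2* at day 8 (geometric mean of 8, range 5.03 to 13.9) and 2.81 times at days 14 and 21 (16 libraries, 1.95 to 4.65). This ratio of the carriers fell 0.364-fold without overlap between the periods (two-sided exact permutation test, p = 1.36e-06, the smallest it can give, adjusted p = 6.12e-06 over the 9 ratio comparisons made), and it does not depend on how libraries are scaled.

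*Enpp1* had an RQ of 0.174, 0.0799, 0.0672 and 0.0952 in WT at day 8 and of 0.179, 0.0473, 0.0499 and 0.0896 in Het. By day 14 it stood at 0.0811, 0.0410, 0.0385 and 0.0520 in WT and at 0.0681, 0.0416, 0.0250 and 0.0271 in Het. Here the days overlapped, and replicate 1 was the highest library of *Enpp1* in each of the 6 groups. The log2 fold change of *Enpp1* was −1.08 ± 0.30 (SE, adjusted p = 0.00533, edgeR), and −0.95 ± 0.17 (adjusted p = 0.000126) in replicates 2 to 4 alone.

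The count per kb of *Alpl*, which removes pyrophosphate, was 10.4 times that of *Enpp1*, which makes it, at day 8 (geometric mean, 3.56 to 21.9) and 102 times at days 14 and 21 (53.6 to 141). The change of this within-library ratio was 9.84-fold, without overlap (two-sided exact permutation test, p = 1.36e-06, the smallest it can give, adjusted p = 6.12e-06). Between *Alpl* and the inhibitor *Mgp* the ratio of counts per kb went from 0.0909 to 0.445 (4.89-fold), with some overlap in range between the periods (exact permutation p = 4.08e-06, adjusted p = 1.22e-05). Like the ratio of the carriers, these ratios were chosen after the values of the genes had been seen.

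**Figure D2:**
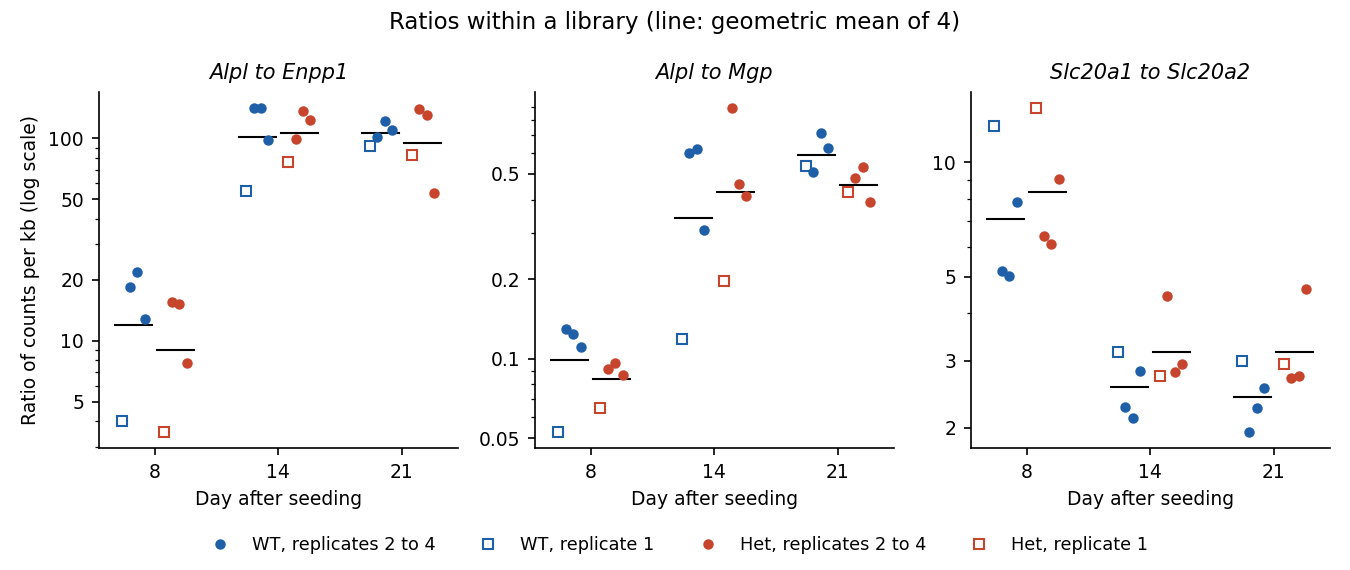
Ratios of counts per kb within each library (log axes) for *Alpl* to *Enpp1*, *Alpl* to *Mgp* and *Slc20a1* to *Slc20a2*, by day and genotype. Points are libraries, open squares mark replicate 1 and lines are geometric means of 4. The first ratio rose from 10.4 to 102 and the last fell from 7.70 to 2.81 between day 8 and the later days, with WT and Het overlapping.

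*Ank*, with an RQ of 0.115 to 0.209 over all libraries, had a log2 fold change of −0.03 from day 8 to day 14 (95% interval −0.21 to 0.15). *Mgp* was 1.53, 1.31, 1.38 and 1.28 in WT at day 8 and 4.35, 1.11, 1.01 and 1.94 at day 14. In Het, *Mgp* was 1.13, 0.924, 0.919 and 0.927 at day 8 and 3.08, 0.539, 0.870 and 0.933 at day 14. *Mgp* was higher at day 14 in replicates 1 and 4 of both genotypes and lower in replicates 2 and 3, and the log2 fold change of *Mgp* was 0.54 ± 0.31 (SE, adjusted p = 0.162, edgeR) with all libraries and −0.10 ± 0.14 without replicate 1. The chondrocyte marker sum was likewise highest in replicate 1 in each of the 6 groups, with an RQ of 7.92 to 22.9 at days 14 and 21 against 1.12 to 13.1 in replicates 2 to 4, and its part in the *Mgp* values was not tested.

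**Figure D3:**
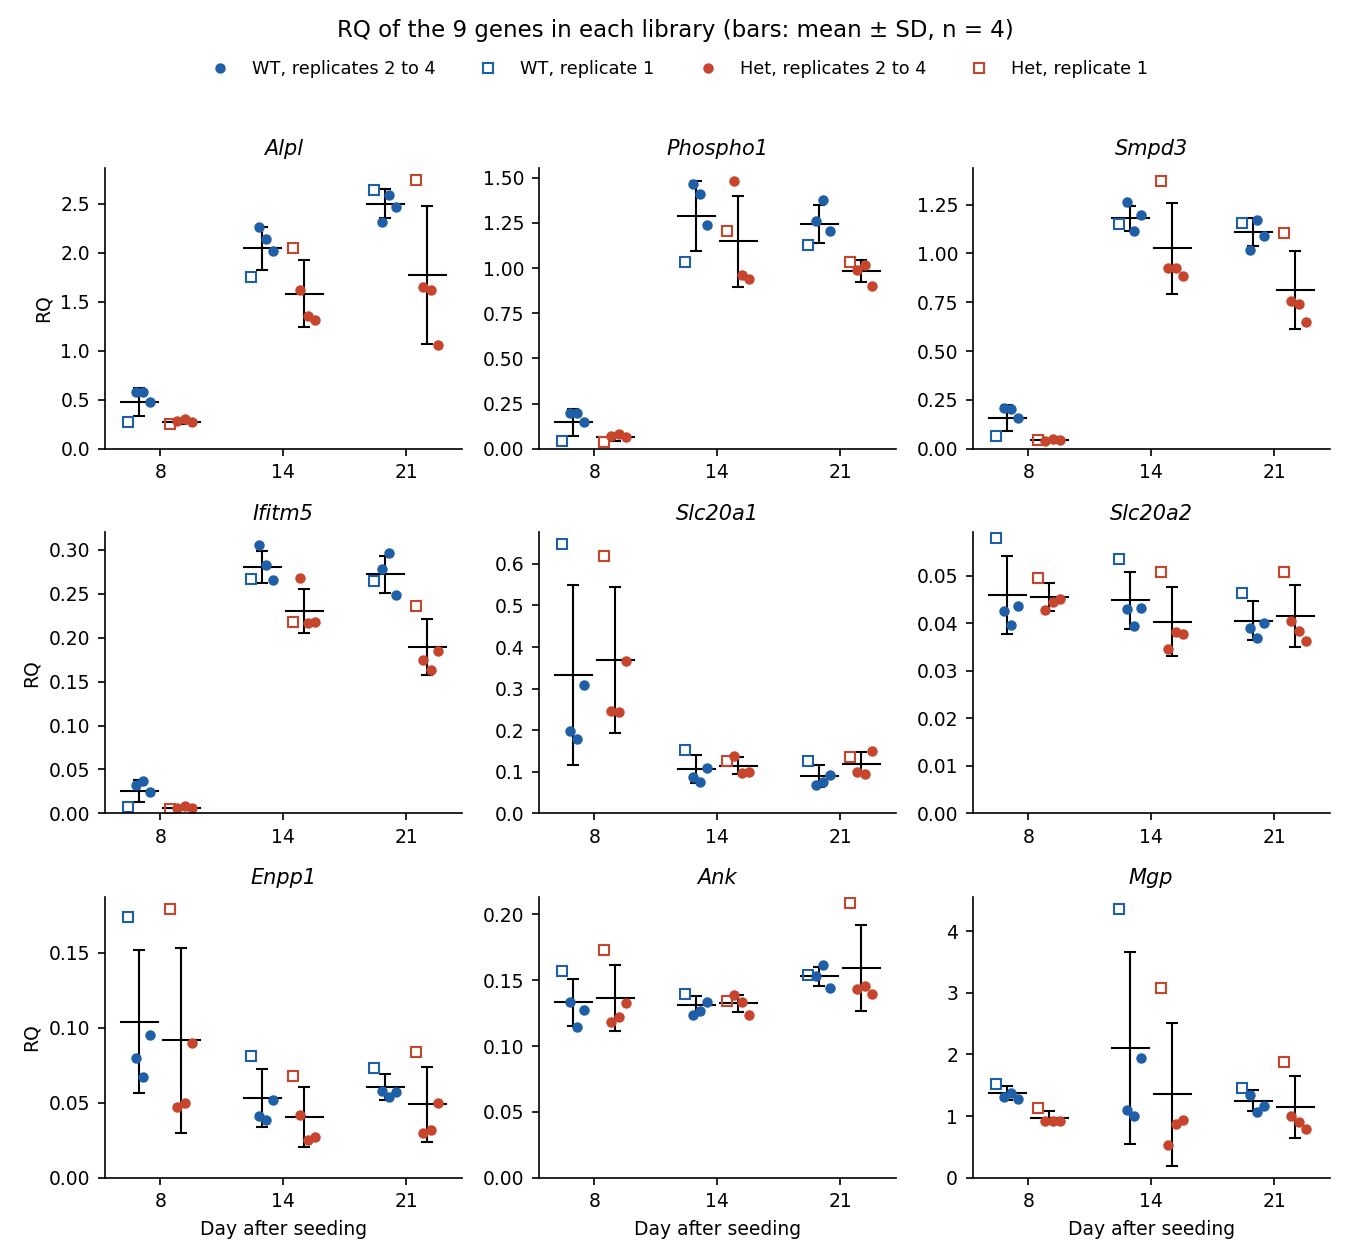
RQ of the 9 genes in each library (linear axes from 0), by day and genotype, with bars for mean ± SD of 4 libraries and open squares for replicate 1. The first 4 genes (*Alpl*, *Phospho1*, *Smpd3*, *Ifitm5*) show the rise after day 8, and replicate 1 is the highest point in each group of *Enpp1* and *Mgp* and the highest Het point of *Alpl* and *Smpd3* at the later days.

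Between days 14 and 21, none of the 9 genes passed the edgeR test, against 18% of all genes (12.1% higher and 5.89% lower), and 1 had an unadjusted p under 0.05 (30.1% of all genes). That gene was *Ank*, with a log2 fold change of 0.24 ± 0.09 (SE, adjusted p = 0.0560). With the replicate number as a block it was called (log2 0.24, adjusted p = 0.0117, edgeR, 24.1% of all genes), and DESeq2's Wald test called it as well (21.3%). At day 21 the RQ of *Alpl* was 2.64, 2.31, 2.58 and 2.47 in WT and 2.74, 1.65, 1.62 and 1.06 in Het, and the WT values of *Alpl* lay wholly above those of day 14. *Phospho1* then had an RQ of 1.13, 1.26, 1.38 and 1.21 in WT against 1.03, 0.989, 1.02 and 0.900 in Het, with the genotypes apart. *Smpd3* had 1.16, 1.02, 1.17 and 1.09 in WT against 1.104, 0.758, 0.740 and 0.648 in Het, where replicate 1 alone reached the WT range. Without replicate 1, *Ank* rose and *Smpd3* and *Ifitm5* fell between these days (31.2% of 19656 genes passed), each by less than 0.25 on the log2 scale.

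Ranked by mean RQ, *Phospho1*, *Smpd3* and *Ifitm5* shared 1 order of the 6 groups: WT at day 14, WT at day 21, Het at day 14, Het at day 21, WT at day 8 and Het at day 8. Within the first 4 of these, each group overlapped the next in all 3 genes, and a gap without overlap parted them from day 8. *Alpl* differed in that day 21 stood above day 14 within each genotype, at 2.4995 and 2.04 RQ in WT and at 1.77 and 1.58 in Het. *Slc20a1* ran from 0.368 RQ in Het at day 8 and 0.333 in WT at day 8, across a gap, to 0.0897 in WT at day 21. For *Slc20a2*, *Enpp1*, *Ank* and *Mgp*, every group overlapped its neighbour in the order. *Ank* at day 21 was 0.154, 0.153, 0.161 and 0.144 in WT and 0.209, 0.144, 0.145 and 0.140 in Het, with replicate 1 of Het alone above the rest.

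The second comparison is between Het and WT. At day 8, *Smpd3* and *Ifitm5* were lower in Het, so 2 of the 9 genes passed the edgeR test, against 0.631% of all genes in either direction and 0.313% lower. *Smpd3* averaged an RQ of 0.160 ± 0.067 (SD, n = 4) in WT and 0.0446 ± 0.0038 in Het, and the genotypes did not overlap. Its log2 fold change was −1.84 ± 0.24 (SE, 0.279-fold, adjusted p = 0.00129, edgeR). *Ifitm5* averaged 0.0252 ± 0.0126 in WT and 0.00637 ± 0.00145 in Het (log2 −1.99 ± 0.28, 0.252-fold, adjusted p = 0.00187), with an overlap through the WT library of replicate 1 alone. Its counts at that day were low, 66 to 223 in the Het libraries and 90 to 905 in WT. How many of them came from bases shared with Gm45717 is not known. In both genes the Het library was the lower one in all 4 same-numbered pairs. The share of all genes with such pairs, or with genotypes that do not overlap, was not counted. Statements of this kind, here and below, therefore describe single genes only.

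*Phospho1* and *Alpl* were also lower in Het in all 4 pairs at day 8, with log2 fold changes of −1.22 ± 0.31 (adjusted p = 0.0689, edgeR) and −0.78 ± 0.23 (adjusted p = 0.129), and neither passed. With the replicate number as a block *Phospho1* passed (log2 −1.18, adjusted p = 0.0329), as did 1.54% of all genes. In replicates 2 to 4 alone, *Alpl* (−0.93), *Phospho1* (−1.33), *Smpd3* (−2.09) and *Ifitm5* (−2.16) all passed, where 17.3% of 19656 genes did and 13.2% were lower. In replicate 1, whose day 8 WT library was the lowest WT library of each of these 4 genes, the Het to WT ratio of RQ was 0.916 for *Alpl*, 0.835 for *Phospho1*, 0.675 for *Smpd3* and 0.609 for *Ifitm5*.

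A fit to the day 8 libraries alone called neither *Smpd3* (adjusted p = 0.168, edgeR) nor *Ifitm5* (adjusted p = 0.186), nor any other gene (0.0% of 18222). *Smpd3* and *Ifitm5* were also not called when replicate 2, 3 or 4 was left out of all groups (adjusted p from 0.190 to 0.265), with log2 fold changes of −1.65 to −1.97. No other gene was called at day 8 in those fits either. Alongside, the osteocyte markers summed at day 8 to an RQ of 0.0359 to 0.0539 in WT replicates 2 to 4, 0.00720 in WT replicate 1 and 0.00704 to 0.0114 in Het. Of these markers, *Dmp1*, a matrix protein of osteocytes, fell by 2.42 on the log2 scale (adjusted p = 0.00854), and 2 of the 4 were under 1 CPM (counts relative to depth) in every library of that day. In replicates 2 to 4 at day 8, 2 of the 5 OB markers, 2 of the 4 osteocyte markers and 5 of the 5 chondrocyte markers were lower in Het by the edgeR test, and 3 of the 5 macrophage and osteoclast markers were higher. The part of such cells in the *Smpd3* and *Ifitm5* values was not tested.

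The other 5 genes did not pass at day 8. *Mgp* was lower in Het in all 4 pairs without overlap between the genotypes, at 1.37 ± 0.11 against 0.976 ± 0.105 RQ (SD, n = 4), but its log2 fold change of −0.49 had a 95% interval of −1.41 to 0.43. That interval rests on a spread fitted over all 6 groups together, so it does not measure the spread at day 8 alone. At day 14 the SD of *Mgp* was 1.56 in WT and 1.16 in Het. *Slc20a1* had a log2 fold change of 0.15 (−0.58 to 0.88) and *Enpp1* of −0.19 (−1.06 to 0.68). *Slc20a2* (−0.01, −0.29 to 0.26) and *Ank* (0.03, −0.22 to 0.29) had the narrowest intervals of the 9. Without replicate 1 these 5 genes did not pass either, where 17.3% of all genes did. *Mgp* then had a log2 fold change of −0.52 (adjusted p = 0.0925, edgeR).

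Over days 14 and 21 combined, with 8 libraries per genotype, no gene of the 9 passed the edgeR test with all replicates, against 15.2% of all genes (7.15% higher and 8.01% lower). Nor did any pass at day 14 alone (3.45% of all genes) or at day 21 alone (0.91%), where an unadjusted p under 0.05 was found for 0 of the 9 at day 14 (21.4% of all genes) and for 2 at day 21 (16% of all genes). Over both days an unadjusted p under 0.05 was found for 2 of them, *Alpl* and *Ifitm5*, and for 30% of all genes, and DESeq2's Wald test called 1, *Alpl*, and 20.3% of all genes. *Alpl* averaged an RQ of 2.27 ± 0.30 (SD, n = 8) in WT and 1.68 ± 0.52 in Het, with a log2 fold change of −0.43 (95% interval −0.77 to −0.10, adjusted p = 0.0698, edgeR). Of the 8 Het libraries, 6 lay below every WT library in *Alpl*, and they were the 6 of replicates 2 to 4. With the replicate number as a block, *Alpl* (log2 −0.45, adjusted p = 0.0468) and *Enpp1* (−0.44, adjusted p = 0.0258) passed, 2 of the 9 against 24.5% of all genes.

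*Ifitm5* at day 21 was 0.265, 0.278, 0.297 and 0.248 in WT and 0.236, 0.174, 0.164 and 0.185 in Het, with every Het library below every WT library of that day. Over days 14 and 21 its mean RQ in Het was 0.761 of that in WT, which passed a two-sided exact permutation test of RQ over all genes with a change of at least 20% (p = 0.000777, adjusted p = 0.0305), the only one of the 9 to do so. That test called 3.67% of all genes, 2.42% lower. In edgeR the log2 fold change of *Ifitm5* was −0.40 ± 0.18 (SE, adjusted p = 0.127), and it passed when only the libraries of days 14 and 21 were fitted (adjusted p = 0.00525), where 15.1% of all genes did.

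Without replicate 1 the picture at days 14 and 21 was different. Of the 9 genes 7 passed, against 41.9% of all 19656 genes tested (18.4% higher and 23.5% lower). *Alpl* (log2 −0.67 ± 0.09, SE, adjusted p = 2.61e-05, edgeR), *Smpd3* (−0.50 ± 0.07, adjusted p = 2.46e-05), *Ifitm5* (−0.47 ± 0.09, adjusted p = 0.000327) and *Phospho1* (−0.34 ± 0.11, adjusted p = 0.0177) were lower in Het. So were *Mgp* (−0.60 ± 0.15, adjusted p = 0.00336) and *Enpp1* (−0.55 ± 0.17, adjusted p = 0.0168), an inhibitor and the maker of another. *Slc20a1* was higher in Het (0.42 ± 0.16, adjusted p = 0.0485), and *Slc20a2* (−0.10) and *Ank* (−0.03) did not pass. The 5 OB markers summed in replicates 2 to 4 at these days to 273 to 336 RQ in WT and 194 to 265 in Het. In these replicates all 5 OB markers, all 4 osteocyte markers and 4 of the 5 chondrocyte markers were lower in Het by the same test, and 3 of the 5 macrophage and osteoclast markers were higher. With all replicates the 5 OB markers had log2 fold changes of −0.55 to −0.34, and 1 of them, *Runx2*, passed (−0.39, adjusted p = 0.0410, edgeR). The macrophage markers *Cd68* (0.92), *Adgre1* (0.97) and *Csf1r* (1.05) then passed as higher in Het, as did *Kdr* of the 3 endothelial markers tested (0.999), *Myh11* of the 4 smooth muscle markers (0.88) and *Dpt* of the 2 fibroblast markers tested (1.15). The macrophage and osteoclast markers summed in replicates 2 to 4 to 1.18 to 2.16 RQ in WT and 1.88 to 2.96 in Het. The part of these cells in the values of the 7 genes was not tested. In replicate 1 the Het to WT ratio of mean RQ over the 2 days was 1.09 for *Alpl*, with Het above WT at both days.

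Whether the genotype difference itself was unlike in replicate 1 and in replicates 2 to 4 was tested over all 3 days with edgeR, in a fit added after the values had been seen. The log2 difference was higher in replicate 1 by 0.81 ± 0.15 (SE) for *Alpl* (adjusted p = 0.00239) and by 0.88 ± 0.15 for *Smpd3* (adjusted p = 0.00152). These 2 of the 9 passed, where 8.95% of all genes did and 4.45% were higher. *Phospho1* had 0.59 ± 0.19 (adjusted p = 0.0534). Among the chondrocyte markers 5 of 5 and among the osteocyte markers 1 of 4 were higher by this test, and 3 of the 5 macrophage and osteoclast markers (*Cd68*, *Adgre1* and *Csf1r*) were lower. The chondrocyte sum at days 14 and 21 was 7.92 to 22.9 RQ in Het replicate 1 and 1.12 to 2.53 in Het replicates 2 to 4, against 7.96 to 22.1 and 3.43 to 13.1 in WT. Depth, these marker levels and the naming of its files all set replicate 1 apart. The labels do not say whether it was one of the separate experiments of the study's methods, with another litter, seeding density and oxygen level. The parts of depth, cell make-up and any such separate experiment in this difference cannot be told apart.

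**Figure D4:**
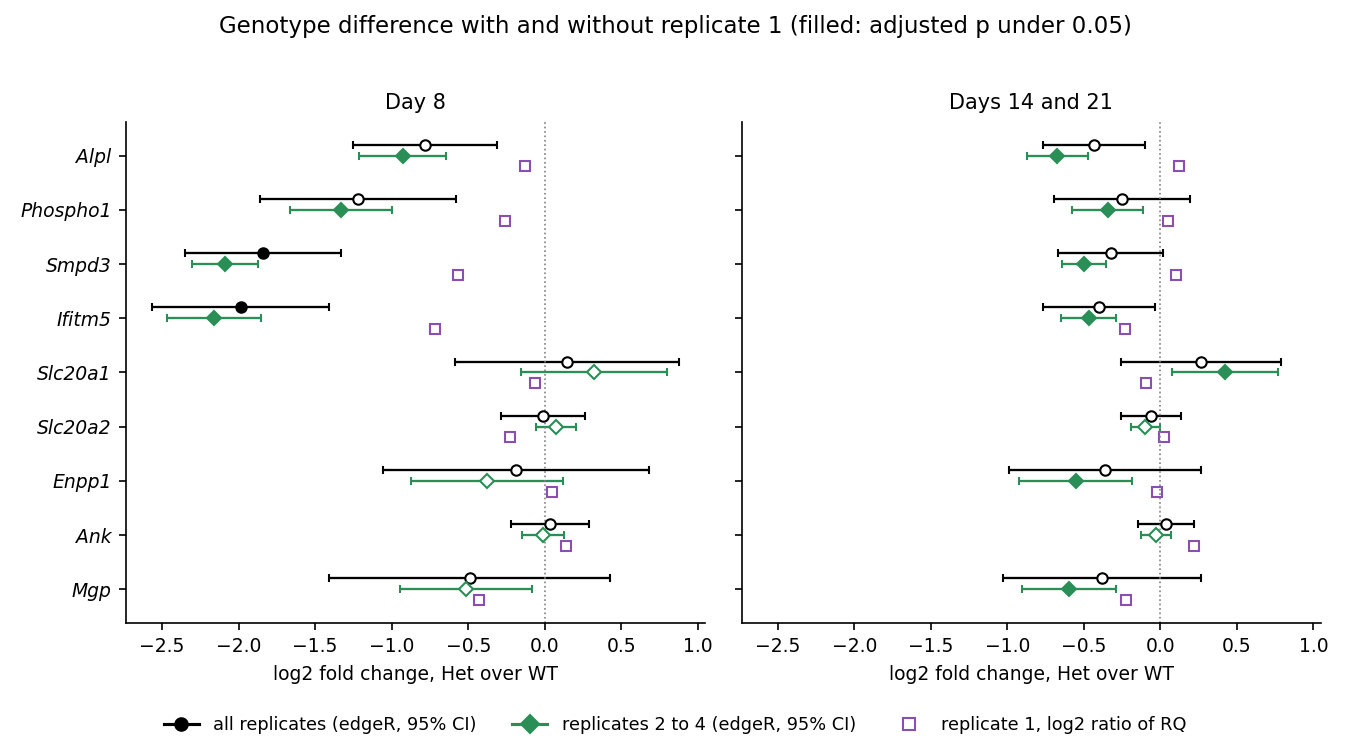
Log2 fold change of Het over WT for the 9 genes at day 8 (left) and at days 14 and 21 (right). Circles are edgeR estimates from all replicates and diamonds those from replicates 2 to 4, each with its 95% interval and filled where the adjusted p was under 0.05, and squares are the log2 ratio of RQ in replicate 1 alone. At the later days no circle is filled and 7 diamonds are, and the replicate 1 square of *Alpl* lies above 0.

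The difference between Het and WT also changed with culture time for some genes. The log2 fold change at days 14 and 21 exceeded that at day 8 by 1.52 ± 0.29 (SE, adjusted p = 0.0351, edgeR) for *Smpd3* and by 1.58 ± 0.33 (adjusted p = 0.0473) for *Ifitm5*, and these 2 of the 9 passed, where 0.171% of all genes did and 0.166% were higher. From day 8 to day 14, *Smpd3* rose 7.38-fold in WT and 22.99-fold in Het, and *Ifitm5* 10.96-fold in WT and 35.7-fold in Het. These calls sat near the threshold. With TMM scaling neither passed (adjusted p = 0.0662 and 0.124, with 0.127% of all genes called), and of the 24 fits that each left out 1 library, 2 gave the same count, 1 gave 3 and 21 gave 0 or 1. In those 24 fits 10 to 97 of all genes passed. In replicates 2 to 4, *Phospho1* (0.99, adjusted p = 0.00659), *Smpd3* (1.59) and *Ifitm5* (1.70) passed, where 4.72% of all genes did and 3.93% were higher. For *Alpl* the difference changed by 0.35 with a 95% interval of −0.23 to 0.92. Between day 14 and day 21 the genotype difference of none of the 9 genes changed by the edgeR test (unadjusted p of 0.339 or more), and of all genes 0.0% passed.

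The same ratios within a library were compared between the genotypes. The ratio of *Alpl* to *Enpp1* per kb from day 14 on stood at 100.5 in Het and 104 in WT (0.969-fold, two-sided exact permutation p = 0.847, adjusted p = 0.941), and that of *Alpl* to *Mgp* was 0.440 in Het and 0.449 in WT (0.9801-fold, p = 0.941). For *Slc20a1* to *Slc20a2* the ratio was 3.17 in Het (2.70 to 4.65) and 2.48 in WT (1.95 to 3.17), a 1.28-fold difference with an exact permutation p of 0.0253 and an adjusted p of 0.0570 over the 9 ratio comparisons. In replicates 2 to 4 this ratio was 2.70 to 4.65 in Het and 1.95 to 2.83 in WT. In replicate 1 it was 2.737 and 2.945 in Het against 3.165 and 2.995 in WT. The ratios were tested with all replicates only.

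Other genes of the same pathways were read from lists. To set beside their counts, 34.2% of all genes were higher and 13.4% lower at day 14 than at day 8. For day 21 against day 14 these shares were 12.1% and 5.89%. Between Het and WT, 0.631% of all genes passed at day 8 and 15.2% at days 14 and 21, in either direction. Of 19 phosphate and pyrophosphate genes, 13 had enough counts to be tested, and from day 8 to day 14 4 were higher and 2 lower, with a median log2 fold change of 0.08 against 0.13 over all genes. *Enpp6*, a choline phosphodiesterase of the *Enpp1* family, rose by 4.43 on the log2 scale (SE 0.23), and *Nt5e*, the ectoenzyme that turns AMP into adenosine and phosphate, by 1.43 (SE 0.18), while *Enpp3* fell by 0.93. In Het against WT at days 14 and 21, 1 of the 13 passed, *Enpp6* at −0.66 ± 0.19 (SE, adjusted p = 0.0222, edgeR). At day 8 the 13 had adjusted p-values of 0.291 or more. Between days 14 and 21, *Enpp6* rose by a further 0.94, *Enpp5* by 0.59 and *Enpp4* by 0.57, and *Ppa1*, a cytosolic pyrophosphatase, fell by 0.34, so 3 of the 13 were higher and 1 lower.

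Of the 16 genes for matrix vesicle annexins, phosphocholine and sphingomyelin, all were tested, and 8 were higher and 4 lower at day 14 than at day 8. Among all genes 34.2% were higher and 13.4% lower, and the median log2 fold change of the list was 0.12 against 0.13 over all genes. *Sgms2*, a sphingomyelin synthase that is needed for bone mineral, rose by 3.70 (SE 0.20) on the log2 scale and *Slc44a1*, a choline carrier, by 1.09, and *Sgms1* fell by 0.54. *Sgms2* was lower in Het at day 8, by a log2 fold change of −1.71 ± 0.26 (SE, adjusted p = 0.00458, edgeR), the only one of the 16 to pass there. At days 14 and 21 the only one was the lysosomal sphingomyelinase gene *Smpd1*, at −0.17 ± 0.06 (adjusted p = 0.0455). Between days 14 and 21, the choline kinase gene *Chka* (0.22) and the acid ceramidase gene *Asah1* (0.25) were higher.

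For the γ-carboxylation that MGP needs, 2 of 3 genes were higher at day 14, against 34.2% of all genes. They were the carboxylase *Ggcx*, by 0.32, and the vitamin K epoxide reductase *Vkorc1*, by 0.71 on the log2 scale. *Vkorc1* was lower in Het at days 14 and 21 (−0.29 ± 0.08, SE, adjusted p = 0.0159, edgeR). Of 6 other IFITM genes 5 were tested. The interferon-induced *Ifitm1* rose by 1.42 and *Ifitm2* by 0.43 at day 14 and *Ifitm10* fell by 0.90, and in Het at days 14 and 21 *Ifitm1* was lower (−0.43 ± 0.08, adjusted p = 0.00139) and *Ifitm3* higher (0.72 ± 0.17, adjusted p = 0.00741).

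The 9 genes fell into sets by how their log2 RQ varied over the 24 libraries, which share 6 groups and their scaling, so correlations are descriptions only. *Alpl*, *Phospho1*, *Smpd3* and *Ifitm5* correlated with each other at 0.972 to 0.995 (Pearson's r), and *Slc20a1* with each of them at −0.922 to −0.872. After the group means were taken out, *Phospho1* and *Ifitm5* still correlated at 0.942 and *Alpl* and *Smpd3* at 0.877, whereas *Alpl* and *Enpp1* stood at −0.059. *Slc20a1* and *Enpp1* correlated at 0.843 within groups, and *Enpp1* and *Ank* at 0.811. Taking out group means leaves a difference of replicate 1 from the other replicates in place. Replicate 1 was the highest *Enpp1* library in every group, and its part in these correlations was not tested.

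Among 12709 genes searched, the pattern most like that of *Ifitm5* was that of *Sgms2* (r = 0.993 over 24 libraries), followed by *Abi3* at 0.993, which shares its reads with *Phospho1*. Nearest to *Alpl* were *Fancc* (0.992) and *Pth1r* (0.9897), the receptor for parathyroid hormone, and nearest to *Smpd3* *Slc8a3* (0.989) and *Cdc42ep3* (0.988). *Slc8a3*, a sodium and calcium exchanger, was lower in Het both at day 8 (log2 −0.95, adjusted p = 0.0470, edgeR) and at days 14 and 21 (−0.54, adjusted p = 0.0197), and *Cdc42ep3* at day 8 (−0.71, adjusted p = 0.0226). *Slc20a1* was most like *Tnfrsf12a* (0.982) and *Itga5* (0.979), and *Enpp1* most like *Loxl3* (0.964) and *Ccn1* (0.952). The steadier genes had looser neighbours, with *Ltbr* (0.903) and *Csnk1d* (0.895) for *Slc20a2*, *Chp1* (0.892) and *Mapk3* (0.877) for *Ank*, and *Rtl8b* (0.873) and *Astn2* (0.860) for *Mgp*.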

How the data were processed

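Bulk RNASeq of cultured primary WT and Het OBs at days 8, 14 and 21 was analysed (24 libraries, 4 per genotype and day). The files as deposited hold unnormalized read counts for 55335 genes, made by the authors. They sequenced polyadenylated RNA from TruSeq libraries without molecular identifiers, so statements on counting cover counting error only. The submitters' processing notes name cutadapt 2.5, STAR 2.73a, Subread, featureCounts 1.6.4 and mm10, and the strand and overlap rules are not given in the sources used here. Totals were 17140202 to 59734231 counts. Gene lengths in bases were deposited beside the counts, and coordinates and overlaps came from GENCODE M21, which held 54587 of the identifiers with the same version.

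RQ was the count over the geometric mean of 4 housekeeping genes, after the paper. The counts of all 24 libraries were fitted in edgeR 4.0.16 (glmQLFit and glmQLFTest, R 4.3.3) as 6 groups with that mean as the library scale, filterByExpr and Benjamini-Hochberg adjustment at 0.05 over all genes, and p-values are two-sided. Days 14 and 21 were combined as in the paper. RQ was also tested by exact permutation (NumPy 2.4.6, 12870 regroupings of 8 against 8, smallest p 0.000155). The routine was checked against that of SciPy 1.17.1 on random numbers. The paper examined 6 wells per genotype, the labels list 8 libraries, and all were used. On simulated counts of 19147 genes, with 200 changed at days 14 and 21 between genotypes, the edgeR step recovered 100% of the 200.

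The members and lists were chosen with earlier results of these data known. Named were the 9 genes, up to 3 genes of each list with the largest log2 fold change past the test in a contrast, the 2 genes most correlated with each member among genes averaging 50 counts or more, and OB markers. *Dmp1*, *Cd68*, *Adgre1*, *Csf1r*, *Kdr*, *Myh11* and *Dpt* were named after their values were seen. Same-numbered WT and Het libraries of a day deviated together from their group means (r of 0.307 to 0.819 for 12 pairs, median −0.103 for 36 other pairs), but within replicates 2 to 4 the medians were 0.475 for 9 same-numbered and 0.391 for 18 other pairs. Every same-numbered r was above 0.1, so a block on the replicate number is printed where it changes a call. No 2 libraries were alike within sampling noise. Alternatives were other scales, no filter, DESeq2 1.42.0, blocks, single days and left-out libraries.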

Additional observations from a re-analysis of the deposited data

Results flagged for a closer look

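In 54 groups of 4 libraries, 1 library lay far from the other 3 in 5, where chance gives about 1 in 20 groups. In Het at day 14, *Smpd3* had an RQ of 1.373 in replicate 1 against 0.885 to 0.924 in the others, and *Mgp* 3.077 against 0.539 to 0.933. In Het at day 21, *Ank* was 0.2086 in replicate 1 against 0.140 to 0.145, and in Het at day 8 *Mgp* was 1.133 in replicate 1 against 0.919 to 0.927. The remaining library was replicate 2 of Het at day 14, in which *Ifitm5* had an RQ of 0.2686 against 0.217 to 0.218.

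The Het against WT difference changed with culture time in *Smpd3* (log2 1.515, days 14 and 21 minus day 8) and *Ifitm5* (1.584) by the edgeR test of the difference. It also differed between replicate 1 and replicates 2 to 4 in *Alpl* (log2 0.8098) and *Smpd3* (0.8793), in a test added after the values had been seen.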

How the results depend on the processing

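Limits come first. The 9 genes were read with at least 17140202 counts a library, but replicate 1 had the lowest depth, the strand and overlap rules are not known, and reads of *Phospho1* and *Abi3* could not be separated. Leaving out replicates changed the number of the 9 genes called. It ranged over 0 to 7 for Het against WT at days 14 and 21 (0 as reported), 0 to 4 at day 8 (2 as reported), 0 to 3 for the change of that difference (2), 5 to 7 for day 14 against day 8 (6) and 0 to 3 for day 21 against day 14 (0). The upper values 7, 4, 3, 7 and 3 came without replicate 1, where 41.9%, 17.3%, 4.72%, 62.8% and 31.2% of all genes were called. Without replicate 2, 3 or 4, none of the 9 was called at day 8 or for the change of the difference. In these fits 0 of all genes were called at day 8 and, in order, 3, 1 and 0 for the change. Single libraries mattered too. Without replicate 1 of WT at day 8 the counts were 3 at days 14 and 21, 4 at day 8, 3 for the change and 1 for day 21 against day 14. Of all genes, 3309, 268, 64 and 3864 were then called, in this order. Without replicate 1 of Het at day 14 the count at days 14 and 21 was 2 (4218 of all genes), and without that of Het at day 21 it was 1 (4440). In the other 21 fits of this kind it was 0. Day 21 against day 14 had a count of 1 without replicate 1 of Het at day 8 or without replicate 2 or 4 of Het at day 21. Of all genes, 4213, 3301 and 3569 were called in these fits.

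Other settings moved these counts as follows. For the change of the genotype difference, the count was 0 with TMM and with DESeq2 size factors and 1 with total counts. Of all genes, 26, 27 and 33 were called there. For day 21 against day 14 the count was 1 with each of these scales, with DESeq2's Wald test, with either block and with only the groups compared, where 3683 to 5222 of all genes were called. At days 14 and 21, the count was 1 with DESeq2 (4099 of all genes), with only the groups compared (2999) and with the exact permutation test of RQ (749). At day 8 it was 4 with DESeq2 (458 of all genes) and 0 with only the groups compared (0). The cause was not tested. Over all alternatives the adjusted p at day 8 ran from 1.08e-10 to 0.258 for *Smpd3* and from 1.06e-09 to 0.265 for *Ifitm5*.

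With the replicate number as a block the counts were 2 at days 14 and 21 (*Alpl* and *Enpp1*), 3 at day 8 and 1 for day 21 against day 14, and with a block of replicate 1 against 2 to 4 they were 2 and 1 at the first and last of these. Of all genes, the former block called 24.5%, 1.54% and 24.1%, and the latter called 5365 and 5222 genes. The replicate block gave *Phospho1* as the added gene at day 8 and *Ank* for day 21 against day 14. It changed no other call among the 9 genes in the comparisons counted above. Within 1 genotype it also changed calls for day 14 against day 8. *Enpp1* then passed in WT (log2 −0.93, adjusted p = 0.000672, edgeR) and *Slc20a2* in Het (−0.19, adjusted p = 0.0268).

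The direction changed only for genes that were not called. *Slc20a2* at day 8 had a log2 fold change of 0.09419 with TMM, 0.08846 with DESeq2 size factors, 0.08175 with total counts, 0.002526 with the replicate block and 0.002014 with the block of replicate 1, and at days 14 and 21 of 0.03115 with total counts and 0.02979 at day 21 alone. For the change of the genotype difference, *Ank* had −0.0452 with TMM and −0.03219 with DESeq2 size factors. In Het alone, day 21 against day 14 gave 0.05982 for *Slc20a1* and 0.04051 for *Slc20a2*. With replicates or libraries left out, log2 fold changes at days 14 and 21 ranged from −0.04063 to 0.07148 for *Ank*. At day 8 the ranges were −0.2207 to 0.6882 for *Slc20a1*, −0.07675 to 0.1152 for *Slc20a2*, −0.7328 to 0.1725 for *Enpp1* and −0.09969 to 0.1217 for *Ank*. For the change of the difference they were −0.4227 to 0.4865 for *Slc20a1*, −0.1777 to 0.01448 for *Slc20a2*, −0.5368 to 0.3673 for *Enpp1*, −0.08512 to 0.1362 for *Ank* and −0.2878 to 0.4268 for *Mgp*. For day 14 against day 8 they were −0.08296 to 0.05987 for *Ank* and −0.1028 to 0.7584 for *Mgp*, and for day 21 against day 14 −0.1903 to 0.01835 for *Slc20a1*, −0.1054 to 0.01059 for *Slc20a2* and −0.7205 to 0.006106 for *Mgp*. Of the values of single genes recomputed, 1555 kept direction and call, 58 lost a call, 52 gained one and 54 changed direction.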
